A study of Mus musculus with 12 samples.

Results

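The Hox genes of the 4 clusters were the 39 protein-coding genes, of 34866 genes with deposited values, whose symbol is Hoxa, Hoxb, Hoxc or Hoxd followed by a number. By the GENCODE M21 annotation of GRCm38 they lie in 4 runs. The 11 Hoxa genes span chromosome 6 from 52155590 to 52260880 on the minus strand, the 10 Hoxb genes chromosome 11 from 96194316 to 96368256, the 9 Hoxc genes chromosome 15 from 102921103 to 103036852, and the 9 Hoxd genes chromosome 2 from 74668310 to 74765142, the last 3 clusters on the plus strand. The number in a symbol is the paralog number, and genes with the same number in different clusters descend from one ancestral gene.

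Hox genes encode homeodomain transcription factors that give body segments their identity. Within a cluster the genes are switched on in their order along the chromosome, so that low-numbered (anterior) genes mark the hindbrain and neck and high-numbered (posterior) genes mark the lower trunk, the tail and the far end of the limbs. Fibroblasts keep much of the Hox pattern of the place they came from when grown in culture, and posterior Hoxa and Hoxd genes are used in all limbs while Hoxc10 and its posterior neighbours are known from hindlimb and lumbosacral tissue.

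The data were transcript levels from sequencing of polyadenylated RNA in immortalized mouse embryonic fibroblasts (MEFs), cells grown out of the connective tissue of embryos. Cells were taken from individual 13-day embryos, made permanent with a plasmid carrying the SV40 T antigen, grown to passage 6, and collected 48 h after seeding. The 4 groups, with 3 libraries each, were male WT and female WT (129S1/SvImJ, Sirt3+/+) and male KO and female KO (Sirt3-/-, lacking the mitochondrial deacetylase Sirt-3). Every group, controls included, carries the SV40 plasmid. Levels are in TPM, a share of all transcripts scaled for transcript length, so that levels can be compared between genes. The question put to the Hox genes was which body position each culture records, and how far the cultures differ in it.

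The triplicates were culture wells, and how many lines stand behind a group is not given in the sources used here. The p-values therefore measure only the spread between these libraries, which may be technical. If a group is 1 line, its line cannot be told apart from its genotype and sex. The WT and KO embryos came from separate stocks of mice, so stock cannot be told apart from genotype either. The TPM carry no read depth, and errors are those between libraries. Sirt3 itself was at 6.59, 7.17 and 9.07 TPM in the male WT libraries, 8.88, 10.9 and 11 in male KO, 7.399, 7.603 and 8.69 in female WT and 7.57, 9.06 and 8.19 in female KO, and so was not lower in the libraries labelled KO. Which exons the KO allele lacks is not given in the sources used here. Directions in what follows are those of the labels. The Y-linked gene Eif2s3y was at 40.3 TPM or above in every male library and listed at 0 in every female library. All 13 fibroblast markers examined averaged 1 TPM or more in each group. No pair of libraries held identical values, and over the 39 Hox genes each of the 12 libraries was nearest to another library of its own group.

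Upstream sequences are shown for the member with the highest group mean in its cluster among those whose RefSeq start lies within 100 bases of the GENCODE start, so that both annotations place the start together. No Hoxc gene met this. The RefSeq windows (GRCm38.p6) held 22 of the 39 members, in 24 windows, and each printed run is the 250 bases before the start, 5′ to 3′ on the gene's strand. Capitals mark matches, on either strand, to TATAAA (the TATA box), to the CCAAT box, to the Cdx letters TTTATG (the site of Cdx factors, which switch on trunk Hox genes), TGATNNAT (a site shared by Hox and Pbx proteins) and AGGTCA (the half-site of retinoic acid receptors). Hoxa10 is at chr6:52240855-52241104 on the minus strand, Hoxb8 at chr11:96281655-96281904 and Hoxd13 at chr2:74667975-74668224, both on the plus strand.
Hoxa10: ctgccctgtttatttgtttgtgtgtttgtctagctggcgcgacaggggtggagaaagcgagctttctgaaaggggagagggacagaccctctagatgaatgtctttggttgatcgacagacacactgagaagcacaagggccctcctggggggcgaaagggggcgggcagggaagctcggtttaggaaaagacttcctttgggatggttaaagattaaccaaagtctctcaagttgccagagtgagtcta
Hoxb8: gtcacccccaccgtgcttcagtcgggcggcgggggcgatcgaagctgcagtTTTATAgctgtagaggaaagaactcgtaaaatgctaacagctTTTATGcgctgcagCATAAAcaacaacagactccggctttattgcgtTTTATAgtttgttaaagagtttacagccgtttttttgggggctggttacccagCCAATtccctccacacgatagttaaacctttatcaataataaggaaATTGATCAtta
Hoxd13: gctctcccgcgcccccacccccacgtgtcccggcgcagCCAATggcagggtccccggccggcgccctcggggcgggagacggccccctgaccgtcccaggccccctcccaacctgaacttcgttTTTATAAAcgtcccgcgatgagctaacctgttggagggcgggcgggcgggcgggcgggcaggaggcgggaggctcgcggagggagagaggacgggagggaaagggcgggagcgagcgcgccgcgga
The Hoxa10 run held none of these motifs. The Hoxb8 run held 2 TATA matches, 1 CCAAT, 2 Cdx matches and 1 Hox-Pbx match. The Hoxd13 run held 1 CCAAT and 2 TATA matches, which overlap because TTTATAAA reads the same on both strands. Of all 32851 such windows, 12.4% held the TATA letters, 33.9% CCAAT, 10.8% the Cdx letters, 7.68% the Hox-Pbx letters and 14.02% the retinoic acid receptor half-site. Among the 24 Hox windows the matching numbers were 4, 14, 5, 4 and 6. The Hox windows had a median of 12.5 CpG dinucleotides (range 2 to 35), against 6 over all windows. A match is a description of letters and not a bound site.

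Each group had its own Hox profile. The male WT cells were dominated by the Hoxd cluster, the female WT cells by Hoxa, and the female KO cells had the most Hoxb and Hoxc transcript. Summed over the 39 genes, Hox transcript came to 348 ± 8.07 TPM in male WT (SD, n = 3), 342 ± 9.03 in male KO, 316 ± 11.3 in female WT and 452 ± 8.05 in female KO. The first 3 groups lay close together and female KO stood above them.

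The Hoxd sum was 202, 218 and 218 TPM in the male WT libraries, 152, 155 and 157 in male KO, 58.4, 60.8 and 56.1 in female WT and 68.5, 68.4 and 68.1 in female KO. The 4 groups did not overlap, and male WT had the highest level and female WT the lowest. The share of Hox transcript that came from Hoxd was 61.1% in male WT, 45.3% in male KO, 18.5% in female WT and 15.1% in female KO. The Hoxa sum was 98.5, 93.9 and 97.1 TPM in the male WT libraries, 132, 134 and 144 in male KO, 171, 156 and 156 in female WT and 119, 123 and 115 in female KO. Again no group overlapped another, but the order was different, with female WT highest and male WT lowest. Hoxb summed to 22.3, 21.1 and 22 TPM in the male WT libraries, 25.03, 26.6 and 23.1 in male KO, 58.98, 62.4 and 54.9 in female WT and 156, 154 and 147 in female KO. Hoxc summed to 16.6, 16.9 and 18.2 TPM in the male WT libraries, 24.3, 24.9 and 26.5 in male KO, 38.4, 38.02 and 37.01 in female WT and 109, 114 and 114 in female KO. For Hoxb and for Hoxc the order was the same, with the male groups lowest (WT below KO) and female KO above female WT at the top, and no overlap between neighbouring groups. In a bulk sample, fewer cells of one kind and less RNA per cell cannot be told apart, so these sums do not say whether all cells of a culture share the profile.

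**Figure D1:**
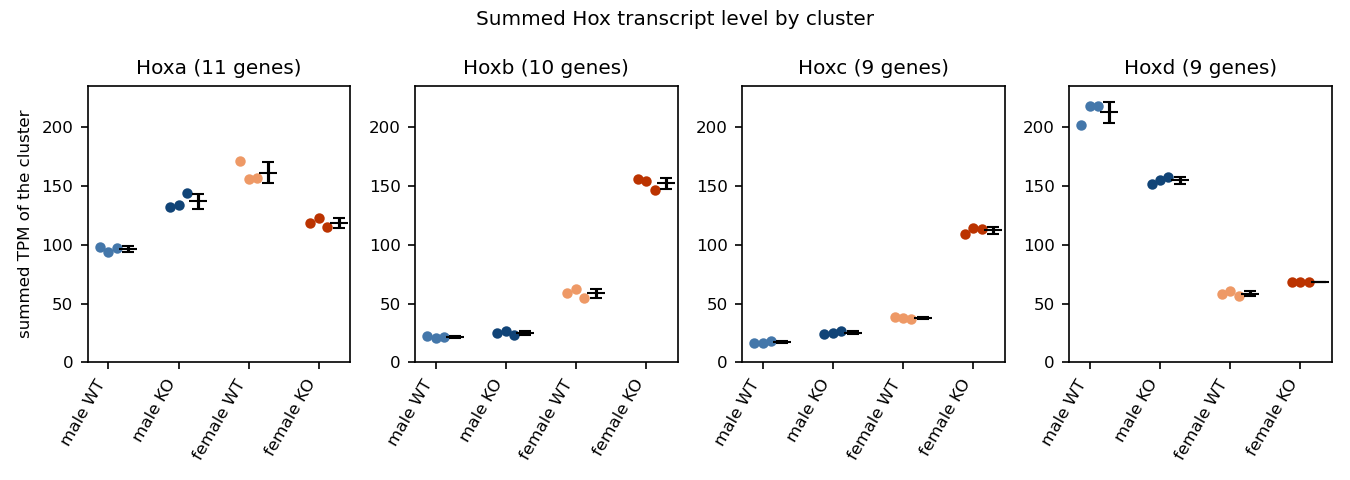
Summed TPM of the genes of each Hox cluster (vertical axis, TPM, from 0) in each library (points) of the 4 groups, with the mean and SD of 3 libraries (bars). The Hoxd sums ran from 56.1 TPM in a female WT library to 218 in a male WT library, while the Hoxb and Hoxc sums were highest in the 3 female KO libraries.

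By paralog number, the profile of every group was weighted to the posterior end. Genes numbered 9 to 13 held 82.9% of Hox transcript in male WT, 69.4% in male KO, 57.9% in female WT and 52.7% in female KO. Genes numbered 1 to 4 held 4.06%, 8.51%, 13.5% and 14.4% in the same order of groups. The male WT peak was at paralog 13, with 145 ± 1.48 TPM (SD, n = 3), and the male KO peak was there too, with 76.1 ± 2.25 TPM. Both female groups peaked at paralog 9 instead, with 54.8 ± 5.96 TPM in female WT and 92.3 ± 5.64 TPM in female KO. Female KO had another high point at paralog 6, with 65.2 ± 5.27 TPM against 30.2 ± 2.87 TPM in female WT.

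**Figure D2:**
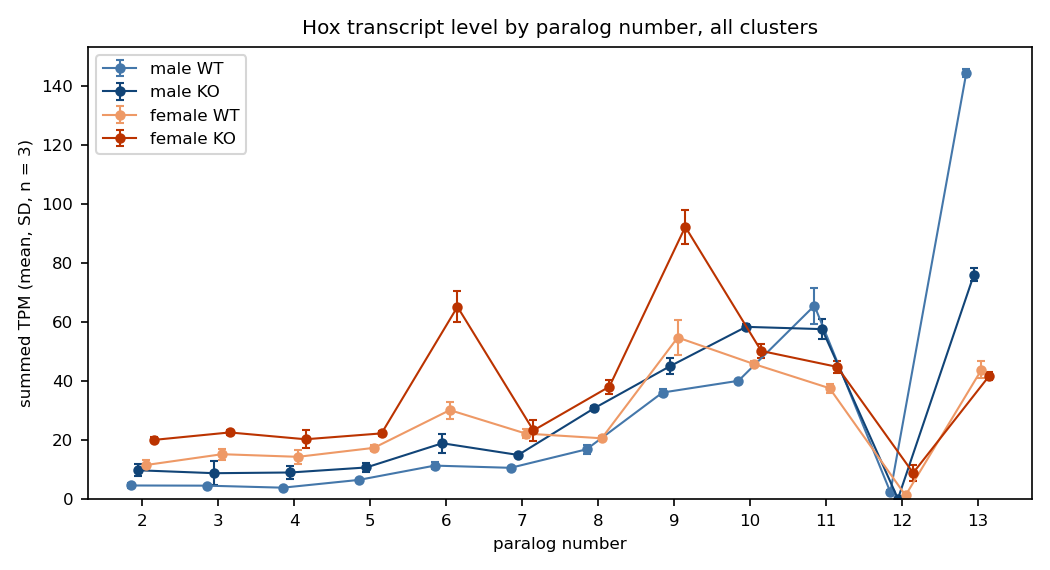
Summed TPM over the clusters (vertical axis) for each paralog number (horizontal axis, anterior 2 to posterior 13) in the 4 groups, as the mean with the SD of 3 libraries. The male WT line peaks at paralog 13 with 144.5 TPM and the female KO line at paralog 9 with 92.3 TPM.

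The number of members with a mean of at least 1 TPM was 27 in male WT, 28 in male KO, 31 in female WT and 33 in female KO. The most posterior member above that level was Hoxa13 for Hoxa, Hoxb9 for Hoxb and Hoxd13 for Hoxd in all 4 groups. In the Hoxc cluster it moved along the cluster, from Hoxc9 in both male groups to Hoxc11 in female WT and Hoxc13 in female KO. With a level of 0.5 TPM in place of 1 the counts were 29, 30, 33 and 36, and with 2 TPM they were 19, 21, 27 and 32. The order of the groups was the same at all 3 levels. Of the 39 members, 21 had their highest mean in female KO, 9 in female WT, 5 in male WT and 4 in male KO. All 9 Hoxc genes and 9 of the 10 Hoxb genes were among the 21.

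**Figure D3:**
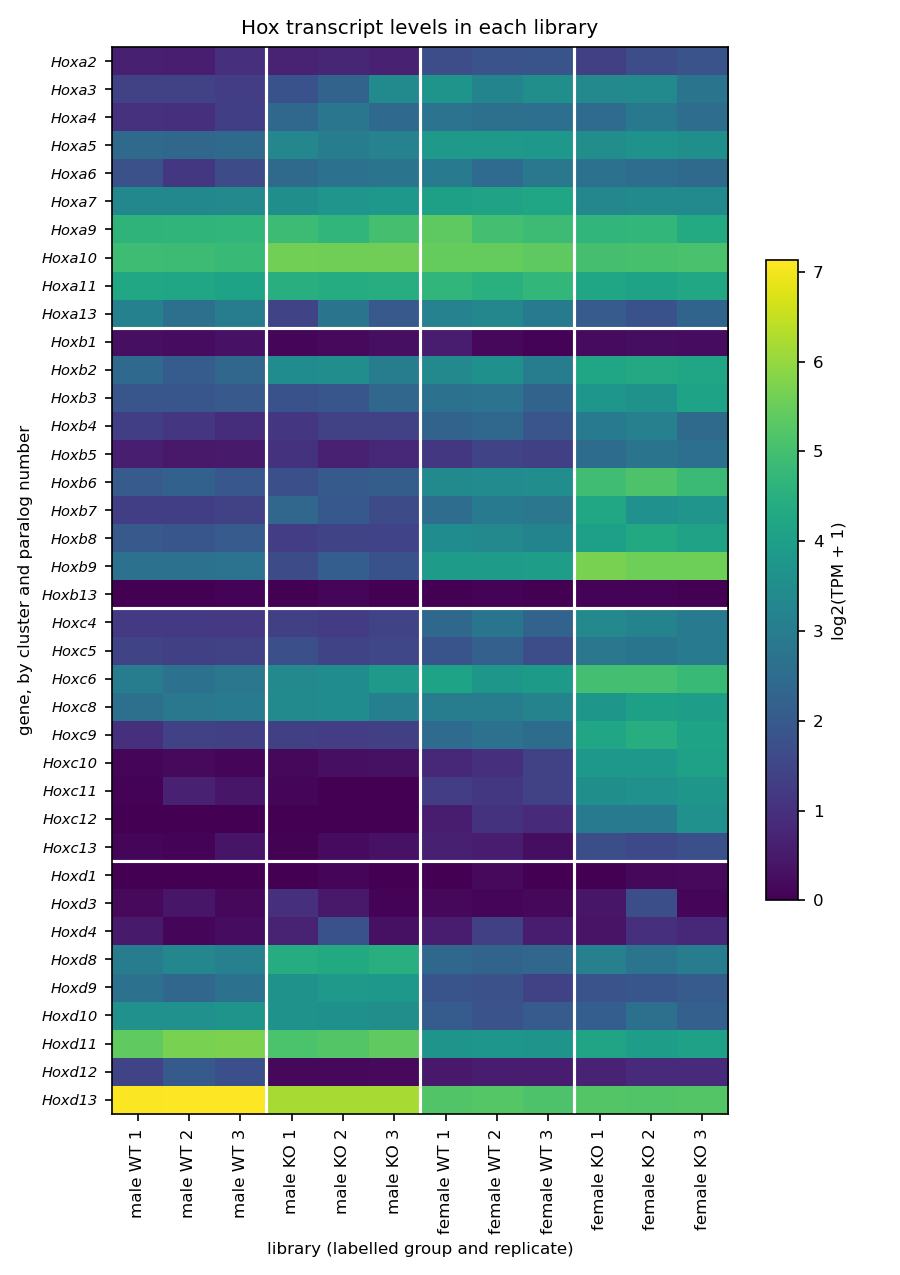
Transcript level of Hox genes of the 4 clusters (rows, by cluster and paralog number) in each of the 12 libraries (columns, white lines between groups), as log2(TPM + 1) by colour. Hoxd13 in the male WT libraries, at 135 to 139 TPM, is the brightest row segment, and Hoxc10 to Hoxc13 are bright in the female KO libraries alone.

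Distances between libraries over the 39 genes, as the root mean square difference of log2(TPM + 1), were small within groups. Within a group the mean distance was from 0.206 in male WT to 0.371 in male KO. Between groups it was 0.709 for male WT and male KO, 1.06 for female WT and female KO, 1.08 for male WT and female WT, and 1.70 for male KO and female KO. It was 1.01 for male KO and female WT, and largest, at 1.77, for male WT and female KO. The KO cultures were thus farther apart in Hox genes than the WT cultures, and female KO was far from both male groups. Male KO was about as far from female WT as male WT was. Each distance between groups was larger than any within one.

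Differences between groups were tested with limma on log2(TPM + 1) for the 12504 genes that averaged 1 TPM or more across the 12 libraries, at an adjusted p under 0.05 (Benjamini-Hochberg over all those genes). Of the 39 members, 32 were tested. The other 7, Hoxb1, Hoxb13, Hoxc13, Hoxd1, Hoxd3, Hoxd4 and Hoxd12, were under that mean. Hoxb5, Hoxc10, Hoxc11 and Hoxc12 reached it through female KO alone and so had to differ from the other groups to be tested. All log2 fold changes below are on the log2(TPM + 1) scale, which understates the change of low genes.

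Between male KO and male WT, 13 members passed, 10 higher and 3 lower in KO. Over all genes tested 21.6% passed, 10.7% higher and 10.9% lower. The median log2 fold change of the 32 members was 0.20, against -0.015 over all genes. Without a filter on low values, 12 of the 39 passed, against 10.4% of 22401 genes. The values of the 2 groups did not overlap for 20 of the 39 members, 16 higher and 4 lower, against 40.0% of all genes tested. Counts without overlap, here and below, take in members under the filter, while the shares beside them cover only tested genes. By cluster, 6 of the 11 Hoxa genes were higher and none lower, 1 of 10 Hoxb genes was higher and 2 lower, 1 of 9 Hoxc genes was higher, and 2 of 9 Hoxd genes were higher and 1 lower. The cluster totals include the 7 members that were not tested.

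Between female KO and female WT, 21 members passed, 17 higher and 4 lower in KO. Over all genes tested 11.5% passed, 5.63% higher and 5.84% lower. The median log2 fold change of the members was 0.64, against -0.023 over all genes. Without the 4 members that reached the filter through female KO alone, 17 passed, 13 higher and 4 lower, and without a filter 20 of the 39 passed, against 5.03% of all genes. The groups did not overlap for 27 of the 39 members, 21 higher and 6 lower, against 33.6% of all genes tested. All 4 lower genes were Hoxa genes, while 7 Hoxb, 8 Hoxc and 2 Hoxd genes were higher and no gene of those 3 clusters was lower. Those higher include Hoxb5, Hoxc10, Hoxc11 and Hoxc12, which reached the filter through female KO alone.

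The male and the female comparison share no library. Hoxb2, Hoxc6 and Hoxd8 were higher in KO in both. Hoxa7, Hoxa10 and Hoxa11 were higher in male KO and lower in female KO, and Hoxb8 and Hoxb9 were lower in male KO and higher in female KO. No member was lower in both. The difference between the sexes was tested itself, as the interaction of sex and genotype over all 12 libraries. It passed for 21 members, against 13.0% of all genes, 9 with the change more positive in males and 12 with the change more positive in females (6.7% and 6.33% of all genes). The 9 were 7 members of Hoxa and 2 of Hoxd and the 12 were 5 of Hoxb, 5 of Hoxc and 2 of Hoxd. Hoxb5, Hoxc10, Hoxc11 and Hoxc12, which reached the filter through female KO alone, are among the 12. Without the 4 members named above 17 passed, and without a filter 21 of the 39 passed, against 6.98% of all genes.

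**Figure D4:**
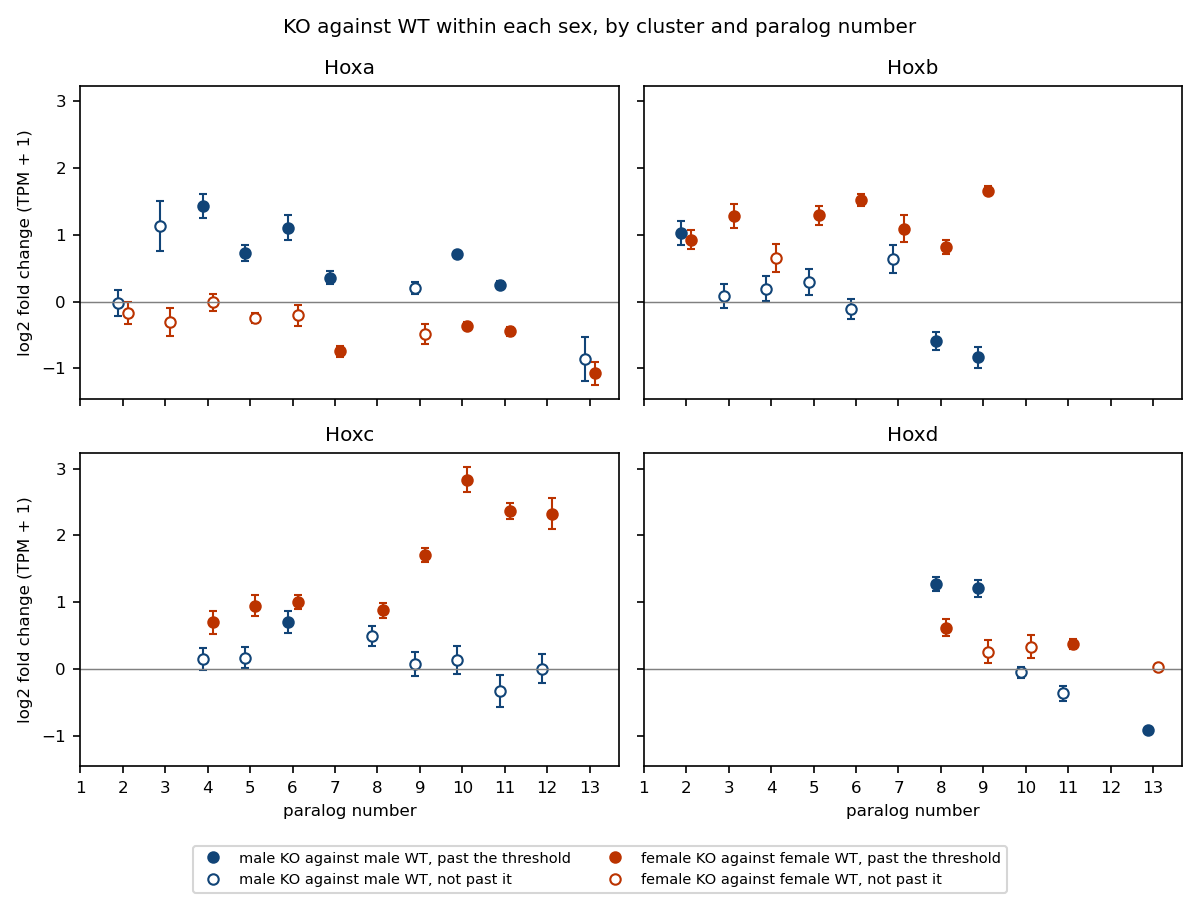
Log2 fold change of KO against WT on the log2(TPM + 1) scale (vertical axis, with SE) for tested Hox genes by paralog number (horizontal axis), males in blue and females in red, filled where the limma adjusted p was under 0.05. In Hoxa the filled male points lie above 0 and the filled female points below it, and in Hoxc the female points run from 0.69 at paralog 4 to 2.83 at paralog 10.

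The sexes also differed within each genotype. Between male WT and female WT, 26 members passed, 5 higher and 21 lower in males, against 12.8% of all genes (6.26% higher and 6.56% lower). All 5 that were higher were Hoxd genes, and the 21 were 8 Hoxa, 8 Hoxb and 5 Hoxc genes. The groups did not overlap for 34 of the 39 members, tested or not, 7 higher and 27 lower, against 33.4% of all genes tested. Between male KO and female KO, 24 passed, 6 higher and 18 lower in males, against 16.6% (8.17% and 8.39%). Hoxd gave 5 of the 6 and Hoxa10 was the other, and the 18 were 2 Hoxa, 8 Hoxb and 8 Hoxc genes. Here the groups did not overlap for 28 of the 39 members, 8 higher and 20 lower, against 35.4% of all genes tested. Without the 4 members named above the counts were 23 and 20, and without a filter 22 (against 5.69% of all genes) and 25 (against 7.52%). Each of these 4 comparisons shares its libraries with others: male WT, for example, is in both the first comparison of genotypes and the first of sexes. Of the 32 tested members, 31 passed in at least 1 of the 5 comparisons.

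The Hoxd cluster carried the most transcript in male cells. Hoxd13 (ENSMUSG00000001819.4, chromosome 2, 74668310 to 74671599), which shapes the digits and the external genitalia, was at 135, 139 and 139 TPM in the male WT libraries, 72.8, 72.7 and 71.8 in male KO, 35.6, 37.3 and 34.2 in female WT and 36.6, 35.7 and 36.6 in female KO. The 3 male WT libraries were the highest of all, the 3 male KO libraries lay between them and the female cells, and the female groups overlapped. Hoxd13 fell in male KO (log2 fold change -0.92, SE 0.037, limma adjusted p = 1.5e-05) and was higher in male than in female WT (log2 fold change 1.92, SE 0.045, limma adjusted p = 2.9e-06). In females the values gave a log2 fold change of 0.025 (limma adjusted p = 0.80). Hoxd11, needed with Hoxa11 for the forearm bones and the kidney, was at 40.7, 51.2 and 51.9 TPM in the male WT libraries, 33.7, 36.03 and 40.7 in male KO, 11.9, 12.5 and 12.02 in female WT and 17.1, 14.9 and 16.01 in female KO. Both male groups were above both female groups, and male KO and male WT met near 40.7 TPM. It was higher in female KO than in female WT (log2 fold change 0.37, SE 0.077, limma adjusted p = 0.027), and higher in male than in female cells in both genotypes (log2 fold changes 1.89 and 1.15). Hoxd12 was under the filter, at 1.74, 3.04 and 2.31 TPM in the male WT libraries, 0.113, 0.105 and 0.1302 in male KO, 0.404, 0.495 and 0.4598 in female WT and 0.647, 0.805 and 0.8096 in female KO. The male WT values were the highest and the male KO values the lowest, with no overlap. Without a filter it was lower in male KO than in male WT (log2 fold change -1.57, SE 0.15, limma adjusted p = 0.0069).

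At the other end of the expressed Hoxd genes the male direction turned. Hoxd8 was at 7.02, 8.87 and 7.56 TPM in the male WT libraries, 20.5, 19.1 and 21 in male KO, 4.22, 3.78 and 4.1 in female WT and 7.56, 5.66 and 7.01 in female KO, and Hoxd9 at 5.37, 4.08 and 5.33 TPM in the male WT libraries, 11.6, 13.3 and 12.96 in male KO, 2.58, 2.44 and 1.62 in female WT and 2.54, 2.75 and 3.17 in female KO. For both the male KO libraries were the highest of all. Both rose in male KO, Hoxd8 with log2 fold change 1.27, SE 0.10, limma adjusted p = 0.00026 and Hoxd9 with log2 fold change 1.21, SE 0.13, limma adjusted p = 0.00081. Hoxd8 also rose in female KO (log2 fold change 0.61, SE 0.13, limma adjusted p = 0.029). Hoxd10, between them and Hoxd11, was at 11.3, 11.2 and 11.98 TPM in the male WT libraries, 11.6, 11.04 and 10.5 in male KO, 3.19, 2.57 and 3.17 in female WT and 3.38, 5.22 and 3.56 in female KO. Male WT and male KO overlapped, and both were above the female groups (log2 fold change 1.65 between the WT groups, limma adjusted p = 0.00019). In males Hoxd10 (log2 fold change -0.053) and Hoxd11 (-0.37) did not pass, so that in KO the genes at one end of this stretch rose and Hoxd13 at the other fell. Hoxd12, which lies between Hoxd11 and Hoxd13, had the most negative male value of the stretch, as given above without a filter. The remaining Hoxd genes were low: Hoxd1 was at most 0.136 TPM, and Hoxd3 and Hoxd4 were at most 2.29 and 2.47 TPM, each of those in a single library. Hoxd3 and Hoxd4 share an exon, and reads of that exon may have been split between them. The call of Hoxd11 in females was lost without any one of 5 libraries (all but female KO replicate 2), at an adjusted p from 0.0672 to 0.0868, and that of Hoxd8 in females without the same 5, from 0.0728 to 0.0877, or without a filter, at 0.0698. The call of Hoxd9 between the WT groups was lost without male WT replicate 1 or 3 (0.0709 and 0.0715) and without a filter (0.0666).

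In the Hoxa cluster 3 genes rose in male KO and fell in female KO. Hoxa10 (ENSMUSG00000000938.11, chromosome 6, 52231197 to 52240854), a posterior gene known from the uterus and lumbar region, was at 29.1, 28.8 and 27.7 TPM in the male WT libraries, 47.9, 46.6 and 46.9 in male KO, 42.4, 42.8 and 40 in female WT and 31.5, 32.3 and 32.9 in female KO. The 4 groups did not overlap, and male KO was the highest. It rose in male KO (log2 fold change 0.71, SE 0.052, limma adjusted p = 0.00016) and fell in female KO (log2 fold change -0.36, SE 0.050, limma adjusted p = 0.0069). Hoxa11, a partner of Hoxd11 in the limb, was at 17.8, 17.5 and 16.7 TPM in the male WT libraries, 21.3, 20.3 and 20.8 in male KO, 24.7, 22.2 and 25.2 in female WT and 17.5, 16.5 and 18.1 in female KO. Male WT and female KO overlapped, with male KO and female WT above them. It rose in male KO (log2 fold change 0.25, SE 0.067, limma adjusted p = 0.039) and fell in female KO (log2 fold change -0.45, SE 0.074, limma adjusted p = 0.013). Hoxa7, a trunk gene, was at 8.97, 9.03 and 9.17 TPM in the male WT libraries, 10.7, 12.2 and 12.8 in male KO, 15.4, 16.3 and 17.2 in female WT and 8.78, 9.59 and 9.72 in female KO. Male WT and female KO again overlapped below the other groups. It rose in male KO (log2 fold change 0.36, SE 0.095, limma adjusted p = 0.037) and fell in female KO (log2 fold change -0.74, SE 0.082, limma adjusted p = 0.0027). The male calls of Hoxa7 and Hoxa11 were weak. That of Hoxa11 was lost without any one of the 6 male libraries (adjusted p from 0.0598 to 0.124) and with quantile normalization (0.0591), and that of Hoxa7 without any one of 5, all but male KO replicate 1 (0.0878 to 0.123), and without a filter (0.0527). The female call of Hoxa11 was lost without female WT replicate 1 or 3 (0.0510 to 0.0527).

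Hoxa4, Hoxa5 and Hoxa6 rose in male KO, towards the female levels. Hoxa4 was at 1.01, 0.986 and 1.49 TPM in the male WT libraries, 4.195, 6.002 and 4.39 in male KO, 5.52, 5.24 and 5.12 in female WT and 4.64, 6.32 and 4.89 in female KO. Male WT was the lowest of the groups, and the other groups overlapped. Hoxa5, which is needed for the lung and airway, was at 4.56, 4.14 and 4.48 TPM in the male WT libraries, 8.87, 7.01 and 7.96 in male KO, 13.2, 13.2 and 12.8 in female WT and 10.6, 11.4 and 10.8 in female KO. Its levels rose from male WT through male KO and female KO to female WT with no overlap. Hoxa6 was at 2.38, 1.24 and 2.11 TPM in the male WT libraries, 4.55, 5.33 and 5.74 in male KO, 6.81, 4.59 and 6.24 in female WT and 5.48, 4.82 and 4.48 in female KO. Male WT was below every library of the other groups. The log2 fold changes of male KO against male WT were 1.43 for Hoxa4 (limma adjusted p = 0.0020), 0.73 for Hoxa5 (0.0062) and 1.11 for Hoxa6 (0.0074). In females none of the 3 passed, with log2 fold changes of -0.011, -0.24 and -0.20.

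The most posterior Hoxa gene behaved otherwise. Hoxa13, used in the hands, feet and genital tract, was at 7.76, 5.19 and 7.12 TPM in the male WT libraries, 1.73, 5.74 and 3.003 in male KO, 7.91, 8.84 and 6.598 in female WT and 3.15, 2.48 and 3.93 in female KO. Female KO was below female WT with no overlap, and the male KO libraries spread from 1.73 to 5.74 TPM across the lower end of male WT. It fell in female KO (log2 fold change -1.07, SE 0.17, limma adjusted p = 0.011). The male values gave a log2 fold change of -0.86 (limma adjusted p = 0.11). Hoxa9, a gene of blood progenitors and the lower trunk, was at 23.7, 24.2 and 25.05 TPM in the male WT libraries, 28.5, 25.01 and 31.3 in male KO, 40.1, 31.1 and 28.7 in female WT and 25.1, 25.6 and 19.7 in female KO. Female KO was below female WT without overlap, but no comparison of genotypes or of sexes passed (limma adjusted p from 0.066 to 0.21). The anterior genes were low in male WT. Hoxa3, needed for the thymus and parathyroid, was at 1.62, 1.59 and 1.44 TPM in the male WT libraries, 2.499, 3.83 and 9.33 in male KO, 11.8, 8.21 and 10.5 in female WT and 9.18, 9.47 and 5.73 in female KO. Every female library was above every male WT library (log2 fold change -2.12, SE 0.15, limma adjusted p = 0.00026), and male KO replicate 3 stood far above the other male libraries. Hoxa2, a gene of the hindbrain and the second pharyngeal arch, was at 0.549, 0.526 and 0.961 TPM in the male WT libraries, 0.642, 0.709 and 0.589 in male KO, 2.24, 2.53 and 2.63 in female WT and 1.53, 2.24 and 2.55 in female KO. It was lower in male than in female cells in WT (log2 fold change -1.05, SE 0.18, limma adjusted p = 0.010) and in KO (log2 fold change -0.90, SE 0.19, limma adjusted p = 0.020). The call of Hoxa2 in KO was lost without male KO replicate 1 or 3 or female KO replicate 2 or 3 (0.0563 to 0.0659). Hoxa5 was lower in male than in female KO (log2 fold change -0.42, SE 0.11, limma adjusted p = 0.041), and that call was lost without any one of 5 libraries, all but male KO replicate 1 (0.0816 to 0.122), without a filter (0.0771) and with median-of-ratios scaling (0.0577). The call of Hoxa6 between the WT groups (log2 fold change -1.25) was lost without a filter (0.0505).

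The Hoxb cluster was highest in female KO along its whole expressed length. Hoxb9 (ENSMUSG00000020875.9, chromosome 11, 96271457 to 96276595), a gene of the thoracic skeleton and the last of the cluster above 1 TPM, was at 5.296, 5.49 and 5.595 TPM in the male WT libraries, 2.13, 3.37 and 2.47 in male KO, 14.2, 14 and 15.1 in female WT and 50.7, 46.4 and 46.4 in female KO. The 4 groups did not overlap, and female KO was far above female WT. It rose in female KO (log2 fold change 1.66, SE 0.063, limma adjusted p = 4.9e-05), fell in male KO (log2 fold change -0.83, SE 0.16, limma adjusted p = 0.010) and was lower in male than in female KO (log2 fold change -3.75, SE 0.13, limma adjusted p = 7.4e-06). Hoxb8, its neighbour and a gene of the trunk spinal cord, was at 3.002, 2.79 and 3.16 TPM in the male WT libraries, 1.48, 1.77 and 1.69 in male KO, 9.98, 9.26 and 8.25 in female WT and 15.4, 19.1 and 16.2 in female KO. The order of the groups was as for Hoxb9, again with no overlap. It rose in female KO (log2 fold change 0.82, SE 0.11, limma adjusted p = 0.0062) and fell in male KO (log2 fold change -0.59, SE 0.14, limma adjusted p = 0.025). Hoxb6, a gene of the trunk mesoderm, was at 3.14, 3.61 and 2.85 TPM in the male WT libraries, 2.36, 3.05 and 3.28 in male KO, 9.74, 9.92 and 10.2 in female WT and 29.5, 34.1 and 28.1 in female KO. The male groups overlapped, and both female groups were above them. It rose in female KO (log2 fold change 1.52, SE 0.087, limma adjusted p = 0.00020), with a male log2 fold change of -0.11 that did not pass. The male call of Hoxb8 was lost without any one of 5 libraries, all but male KO replicate 2 (0.0504 to 0.0817).

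Hoxb7 was at 1.51, 1.49 and 1.64 TPM in the male WT libraries, 4.11, 2.91 and 2.13 in male KO, 4.89, 6.61 and 6.13 in female WT and 18.4, 11.1 and 12.3 in female KO, and Hoxb5 at 0.508, 0.403 and 0.425 TPM in the male WT libraries, 1.06, 0.569 and 0.727 in male KO, 1.23, 1.77 and 1.55 in female WT and 4.72, 5.67 and 5.099 in female KO. For both the female KO libraries were the highest and the male WT libraries the lowest. Both rose in female KO, Hoxb7 with log2 fold change 1.09, SE 0.20, limma adjusted p = 0.018 and Hoxb5 with log2 fold change 1.30, SE 0.14, limma adjusted p = 0.0027. Hoxb5 reached the filter through female KO alone, so its p-value is not evidence of a difference there. Among the anterior genes, Hoxb2, which acts in the hindbrain, was at 4.42, 3.24 and 4.14 TPM in the male WT libraries, 10.2, 10.3 and 6.89 in male KO, 9.27, 10.9 and 7.12 in female WT and 17.8, 18.7 and 17.4 in female KO. In each sex KO was above WT without overlap, and male KO overlapped female WT. It rose in male KO (log2 fold change 1.03, SE 0.18, limma adjusted p = 0.0078) and in female KO (log2 fold change 0.93, SE 0.14, limma adjusted p = 0.0096). Hoxb3 was at 2.72, 2.72 and 2.97 TPM in the male WT libraries, 2.45, 2.76 and 4.06 in male KO, 5.42, 5.61 and 3.83 in female WT and 12.4, 11.6 and 16.7 in female KO. Hoxb4, a gene used to expand blood stem cells, was at 1.49, 1.19 and 0.902 TPM in the male WT libraries, 1.19, 1.65 and 1.67 in male KO, 3.81, 4.21 and 2.67 in female WT and 6.58, 7.57 and 4.56 in female KO. For both genes the female KO libraries were above the female WT libraries. Hoxb3 rose in female KO (log2 fold change 1.29, SE 0.18, limma adjusted p = 0.0069), and Hoxb4 did not pass (log2 fold change 0.66, SE 0.21, limma adjusted p = 0.097). Hoxb1 was at most 0.453 TPM and Hoxb13, known from the prostate and tail, at most 0.0612 TPM. The female call of Hoxb7 was lost without female WT replicate 1 or 3 (0.0538 to 0.0628) and without a filter (0.0709). Every Hoxb gene from Hoxb2 to Hoxb9 was lower in male than in female WT, with log2 fold changes from -1.43 to -0.63. Of those calls, that of Hoxb3 was lost without any one of 5 libraries, all but female WT replicate 3 (0.0921 to 0.127), and without a filter (0.105), that of Hoxb4 without male WT replicate 3 or female WT replicate 1 or 2 (0.0506 to 0.0568), that of Hoxb5 without any one of the 6 (0.0517 to 0.0887), and that of Hoxb2 without a filter (0.0509).

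In the Hoxc cluster the posterior genes had their highest levels in female KO, and they were near 0 in male cells. Hoxc10 (ENSMUSG00000022484.7, chromosome 15, 102966796 to 102971893), a gene of the hindlimb and lumbar region, was at 0.06302, 0.133 and 0.0601 TPM in the male WT libraries, 0.104, 0.217 and 0.2401 in male KO, 0.725, 0.995 and 1.65 in female WT and 12.9, 13.1 and 15.9 in female KO. The 3 female KO libraries stood far above the others, and the male libraries were near 0. Hoxc11, its hindlimb neighbour, was at 0.059, 0.561 and 0.338 TPM in the male WT libraries, 0.0975, 0 and 0 in male KO, 1.46, 1.22 and 1.61 in female WT and 10.7, 11.2 and 12.6 in female KO. The female KO libraries were again far above the rest. Hoxc12 was listed at 0 in all 6 male libraries and was at 0.4803, 1.08 and 0.824 TPM in the female WT libraries and 6.52, 6.74 and 11.1 in female KO. Hoxc13, a gene of hair and nails and the last of the cluster, was under the filter, at 0.0944, 0.0499 and 0.315 TPM in the male WT libraries, 0.0389, 0.162 and 0.269 in male KO, 0.542, 0.465 and 0.1901 in female WT and 2.26, 1.97 and 2.31 in female KO. Only the female KO libraries were above 1 TPM. The log2 fold change of female KO against female WT was 2.83 for Hoxc10 (SE 0.19, limma adjusted p = 0.00032), 2.36 for Hoxc11 (SE 0.12, 0.00016) and 2.32 for Hoxc12 (SE 0.23, 0.0019). Hoxc10, Hoxc11 and Hoxc12 reached the filter through female KO alone, so a difference there was built into their testing. Their p-values are not evidence of it. Without a filter, Hoxc13 was higher as well (log2 fold change 1.19, SE 0.12, limma adjusted p = 0.015). Hoxc10 and Hoxc11 were also lower in male than in female WT (log2 fold changes -0.95 and -0.90). The first of those calls was lost without any one of the 6 libraries (0.0503 to 0.101), without a filter (0.0506) and with quantile normalization (0.0838), and the second without any one of 5, all but male WT replicate 2 (0.0749 to 0.1102), without a filter (0.0526), with quantile normalization (0.0566) and with a pseudocount of 0.1 (0.0703).

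**Figure D5:**
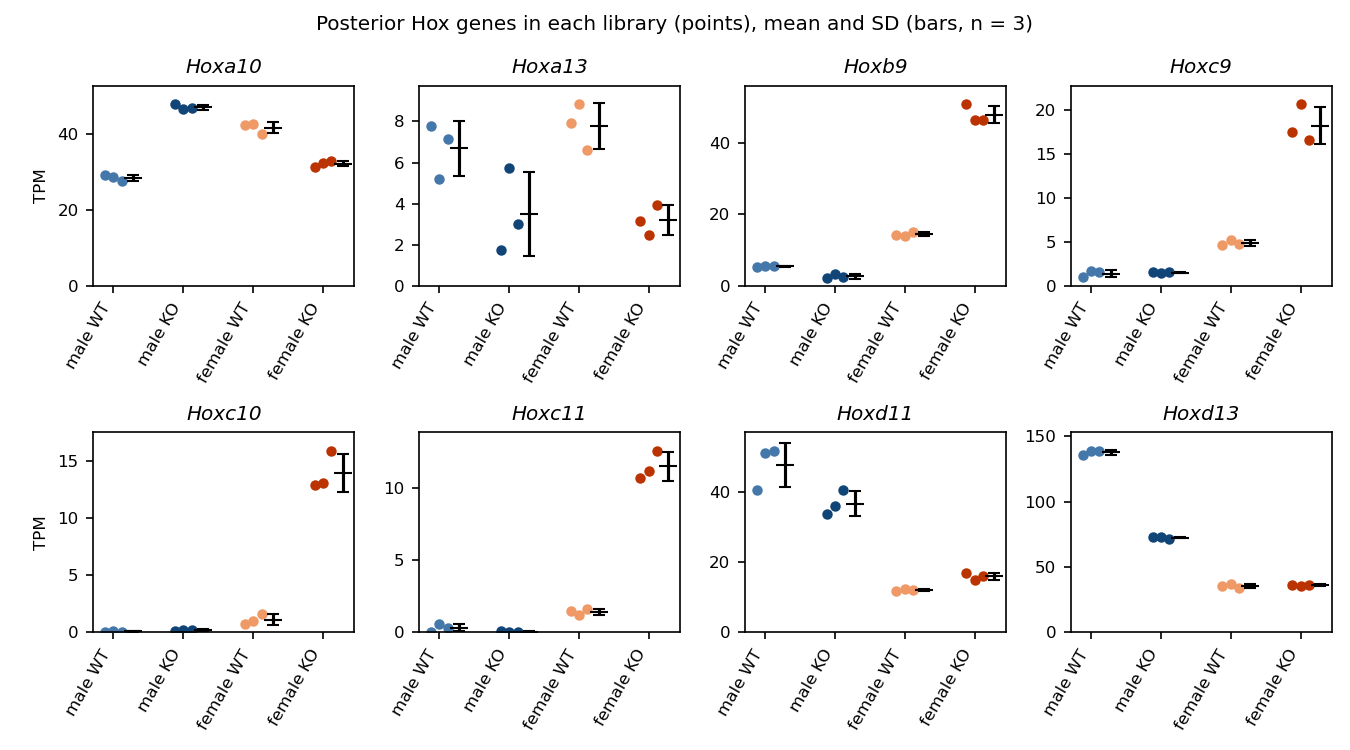
TPM of 8 posterior Hox genes (vertical axes, each from 0) in each library (points) of the 4 groups, with the mean and SD of 3 libraries (bars). Hoxd13 and Hoxd11 are highest in male WT, Hoxa10 in male KO, and Hoxb9, Hoxc9, Hoxc10 and Hoxc11 in female KO, where Hoxc10 lies between 12.9 and 15.9 TPM.

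The trunk genes of Hoxc were expressed in every group. Hoxc9, a gene of the thoracic spinal cord and ribs, was at 0.982, 1.67 and 1.56 TPM in the male WT libraries, 1.54, 1.45 and 1.56 in male KO, 4.62, 5.26 and 4.73 in female WT and 17.5, 20.6 and 16.5 in female KO. Male WT and male KO overlapped, female WT was above them and female KO above all. It rose in female KO (log2 fold change 1.71, SE 0.11, limma adjusted p = 0.00029), with a male log2 fold change of 0.078 (limma adjusted p = 0.80). Hoxc8, a gene of the brachial and thoracic trunk, was at 5.17, 6.19 and 6.87 TPM in the male WT libraries, 9.51, 9.96 and 7.48 in male KO, 7.17, 6.91 and 8.19 in female WT and 12.8, 15.7 and 14.9 in female KO. KO was above WT in both sexes, with no overlap. It rose in female KO (log2 fold change 0.87, SE 0.11, limma adjusted p = 0.0045) and did not pass in males (log2 fold change 0.49, SE 0.15, limma adjusted p = 0.0526). Hoxc6, a gene of the upper thorax, was at 7.16, 5.42 and 6.13 TPM in the male WT libraries, 9.16, 10.01 and 13.3 in male KO, 16.5, 12.8 and 13.8 in female WT and 31.1, 30.95 and 26.98 in female KO. Here too KO was above WT in both sexes. It rose in male KO (log2 fold change 0.70, SE 0.16, limma adjusted p = 0.022) and in female KO (log2 fold change 1.01, SE 0.11, limma adjusted p = 0.0024). Hoxc5 was at 1.77, 1.57 and 1.64 TPM in the male WT libraries, 2.34, 1.74 and 1.89 in male KO, 2.58, 3.53 and 2.24 in female WT and 6.06, 5.797 and 6.76 in female KO. Hoxc4, the most anterior gene of the cluster, was at 1.301, 1.31 and 1.25 TPM in the male WT libraries, 1.54, 1.34 and 1.73 in male KO, 4.33, 5.79 and 3.802 in female WT and 9.26, 8.15 and 6.85 in female KO. Both were highest in female KO without overlap, and both rose there (log2 fold changes 0.94 and 0.69, limma adjusted p = 0.013 and 0.0453). One exon is shared by Hoxc5 and Hoxc10, and the part that this had in the Hoxc5 values was not tested. The female call of Hoxc4 was lost without any one of 5 libraries, all but female WT replicate 2 (0.0633 to 0.128), without a filter (0.126) and without the mean-variance trend (0.0585), and that of Hoxc5 without female WT replicate 1 or female KO replicate 3 (0.05005 to 0.0508). The male call of Hoxc6 was lost without male WT replicate 2 or 3 or male KO replicate 3 (0.0566 to 0.0705) and without a filter (0.0767). Hoxc8 was lower in male than in female KO (log2 fold change -0.63), a call lost without female KO replicate 2 or 3 (0.0657 to 0.0674) and without a filter (0.0666).

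Of the members, 16 overlap an exon of another annotated gene, and 10 of them an exon on the opposite strand, such as Hoxa11 with its antisense RNA Hoxa11os and Hoxb3 with Hoxb3os. Whether the counting used strand is not given in the sources used here, so reads of these partners cannot be told apart. Of the noncoding genes annotated inside the clusters, only the pseudogene Gm11539 was matched in the deposited values. It was at most 2.58 TPM and, being under the filter, was not tested.

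Genes of proteins that bind DNA together with Hox factors were counted too. Of the 9 Pbx, Meis and Pknox genes, 3 were higher and 1 lower in male KO, and 1 was higher and 1 lower in female KO. Over all genes tested 21.6% passed in male KO and 11.5% in female KO. Among them, Pknox2 (log2 fold change 1.28) and Meis3 (0.82) were higher and Pknox1 (-0.38) lower in male KO, and Meis2 (0.95) was higher in female KO.

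Counts for chromatin regulators that hold Hox genes silent or active are set beside the shares of all genes tested. Those shares were 21.6% in male KO, 11.5% in female KO and 12.8% between the WT groups. Of 19 polycomb genes, which keep Hox genes off, 1 was higher and 2 were lower (log2 fold change of Eed -0.55, Phc2 -0.26) in male KO, and none passed in female KO, where 3 were under an unadjusted limma p of 0.05 (2 higher, 1 lower) and the median log2 fold change was -0.0084. Of 12 trithorax and related genes, which keep them on, 1 was lower in male KO (Ash2l, -0.19) and none passed in female KO, with 1 lower at an unadjusted limma p under 0.05. Between the WT groups no polycomb gene passed (1 higher and 2 lower in males at an unadjusted limma p under 0.05), and 2 of the 12 were lower in males, Kdm6a (-0.49), which escapes X inactivation, and Kdm6b (-0.33).

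Retinoic acid and Cdx factors set up Hox expression in the embryo. Cdx2 and Cdx4 were listed at 0 in every library, and Cdx1 was at most 0.141 TPM. Of the 13 genes of this list, 9 were tested, and in male KO 3 were higher and 4 lower, in female KO 3 higher and 1 lower. The shares over all genes tested were 21.6% in male KO and 11.5% in female KO. The binding protein gene Crabp2 was at 122, 128 and 122 TPM in the male WT libraries, 26.8, 25.2 and 26.6 in male KO, 39.4, 41.98 and 39.4 in female WT and 35.4, 44.02 and 45.1 in female KO. Male WT stood above all other groups, and Crabp2 fell in male KO (log2 fold change -2.20, SE 0.050, limma adjusted p = 2.7e-06). The receptor gene Rarb, itself a target of retinoic acid, was at 6.25, 9.01 and 10.3 TPM in the male WT libraries, 1.44, 1.06 and 1.57 in male KO, 2.12, 2.48 and 1.48 in female WT and 2.77, 3.87 and 1.695 in female KO. It too was highest in male WT and fell in male KO (log2 fold change -1.995, SE 0.20, limma adjusted p = 0.00063). Aldh1a2, which makes retinoic acid, was at 0.156, 0.1096 and 0.0989 TPM in the male WT libraries, 0.984, 0.891 and 1.13 in male KO, 3.39, 3.88 and 2.298 in female WT and 0.0459, 0.0481 and 0.108 in female KO. It was highest in female WT and lowest in female KO, where it fell (log2 fold change -1.95, SE 0.20, limma adjusted p = 0.0019), while it rose in male KO (log2 fold change 0.84, SE 0.19, limma adjusted p = 0.020). Aldh1a2 reached the filter through female WT alone, so a difference there was built into its testing. Its female p-value is not evidence of it. The part of these regulators in the Hox values was not tested.

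Genes next to the clusters were read beside them, from lists of flanking genes. Evx2, which lies beyond Hoxd13 and shares its limb enhancers, was at 2.58, 3.38 and 2.21 TPM in the male WT libraries, 0.9598, 1.54 and 1.11 in male KO, 0.631, 0.337 and 0.6101 in female WT and 0.584, 0.915 and 1.31 in female KO. Male WT was the highest group, and male KO was below it without overlap. Evx2 fell in male KO (log2 fold change -0.75, SE 0.19, limma adjusted p = 0.031) and was higher in male than in female WT (log2 fold change 1.28, SE 0.19, limma adjusted p = 0.0064). It reached the filter through male WT alone, so a difference there was built into its testing. Its p-values are not evidence of it. Of the 6 listed Hoxd neighbours, Chn1 was the other that passed in male KO (log2 fold change 1.01). Of the 7 Hoxa neighbours, 2 were higher and 1 lower in male KO, with log2 fold changes from -0.17 to 0.37. Of the 7 Hoxb neighbours, Copz2 rose in male KO (log2 fold change 0.66) and in female KO (0.67). Of the 7 Hoxc neighbours, 1 was higher and 1 lower in male KO, Copz1 (0.18) and Hnrnpa1 (-0.14). In female KO no neighbour of Hoxa, Hoxc or Hoxd passed, and at an unadjusted limma p under 0.05 there were 1 of Hoxa, 0 of Hoxc and 2 of Hoxd. Beside these counts, 21.6% of all genes tested passed in male KO and 11.5% in female KO.

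Limb identity genes gave a further view of position. Of the 6 listed, 5 were tested. In male KO 3 were higher and 2 lower, and in female KO 2 were higher and 2 lower. Over all genes tested 21.6% and 11.5% passed in these comparisons. Tbx5, the forelimb gene, was at 9.41, 8.95 and 8.72 TPM in the male WT libraries, 13, 15.97 and 12.5 in male KO, 10.7, 9.68 and 10.4 in female WT and 5.41, 5.23 and 7.602 in female KO. Male KO was the highest group and female KO the lowest. Pitx1, a hindlimb gene, was at 3.18, 3.76 and 3.75 TPM in the male WT libraries, 0, 0.0543 and 0 in male KO, 1.97, 2.05 and 2.25 in female WT and 2.31, 1.31 and 1.63 in female KO. It was near 0 in male KO, where it fell (log2 fold change -2.16, SE 0.17, limma adjusted p = 0.00019), and the female groups overlapped. Tbx4, the other hindlimb gene, was under the filter, listed at 0 in all 3 male KO libraries and at most 1.55 TPM elsewhere. The female KO libraries, with the highest posterior Hoxc levels, had 0.1495 to 0.565 TPM of Tbx4 and 1.31 to 2.31 TPM of Pitx1.

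Markers of other tissues also moved with the groups. The 7 kidney and urogenital markers summed to 107 to 117 TPM in male KO and 40.9 to 61.6 TPM in the other groups, with Pax8 at 31.98 to 37.8 TPM in male KO and under 1 TPM elsewhere. They did not all move alike: of the 5 tested, 3 were higher and 1 was lower in male KO. Pax8, among the 3, reached the filter through male KO alone, so its call there was built into its testing. The 7 epithelial markers summed to 76.1 to 77.8 TPM in male WT, 19.8 to 22.9 TPM in female WT and 7.43 to 10.3 TPM in the KO groups, led by Krt19 at 67.2 ± 0.852 TPM in male WT (SD, n = 3). The 6 cartilage markers summed to 45.2 to 57.2 TPM in the KO groups and 14.3 to 23.3 TPM in the WT groups. The 7 neural markers summed to 55.7 to 64.8 TPM in male KO, 65.8 to 77.2 TPM in female KO, 89.1 to 93.2 TPM in male WT and 98.7 to 108 TPM in female WT. Of the 3 neural markers tested, 1 was higher and 2 were lower in male KO, and 1 was higher and 1 lower in female KO. For all these marker counts, 21.6% of all genes tested passed in male KO and 11.5% in female KO. The endothelial, blood and skeletal muscle lists each summed to at most 6.92 TPM in any library. The part of these cells or programmes in the Hox levels was not tested.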

How the data were processed

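Polyadenylated RNA of 12 MEF cultures was sequenced by the authors, quantified with Salmon against GRCm38 (version 1.10.1 in the submitters' notes) and deposited as TPM per gene. The annotation behind the table is not given in the sources used here. Of 34866 versioned Ensembl identifiers, 99.2% matched GENCODE M21, which gave symbols and coordinates. Because TPM are not counts, limma 3.58.1 (R 4.3.3) was run on the log2(TPM + 1) values, with the variance modelled on the mean level, for the 6 libraries of each pair of groups or all 12 for the interaction. Genes averaging under 1 TPM were left out, and p-values were adjusted by the Benjamini-Hochberg method over the 12504 remaining genes. The procedure was run on simulated data with independent noise in each library, which cannot show whether the wells here are independent. Results of some listed genes, 1 member among them, are not reported here. The members and lists were chosen with earlier results of these data known. Members are given library by library if a group mean reached 5 TPM, or if they passed a test with a group mean of at least 2 TPM. The near-silent members, Hoxd12, and the levels of genes that are not Hox genes were added after their values were seen. Of other lists, at most 4 genes that passed are named per comparison. Median-of-ratios factors were 0.966 to 1.02, and 12256 to 12637 genes reached 1 TPM in a library. Alternatives were a pseudocount of 0.1, no filter, a mean of at least 5 TPM, 2 other scalings, a flat variance prior, a joint fit, a block by replicate number, and each library left out.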

Additional observations from a re-analysis of the deposited data

Results flagged for a closer look

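The change from WT to KO differed between males and females for 21 of the 32 tested Hox genes, by the test of the interaction over all 12 libraries. Over all genes tested 13.0% passed. The values below are that difference, the male log2 fold change less the female one on the log2(TPM + 1) scale, each with its limma adjusted p (Benjamini-Hochberg) in parentheses. In the Hoxa cluster the change was more positive in males for every gene concerned: Hoxa4 1.44 (0.0011), Hoxa5 0.968 (0.00035), Hoxa6 1.31 (0.0047), Hoxa7 1.1 (6.7e-05), Hoxa9 0.686 (0.030), Hoxa10 1.07 (1.2e-06) and Hoxa11 0.696 (0.00036). In the Hoxb cluster it was more positive in females: Hoxb3 -1.2 (0.0090), Hoxb5 -1 (0.013), Hoxb6 -1.63 (4.8e-05), Hoxb8 -1.41 (0.00011) and Hoxb9 -2.5 (1.4e-06). The Hoxc genes went the same way as Hoxb: Hoxc5 -0.777 (0.032), Hoxc9 -1.63 (0.00016), Hoxc10 -2.7 (2.9e-05), Hoxc11 -2.7 (2.1e-05) and Hoxc12 -2.32 (0.00033). Hoxc12 was listed at 0 in all male libraries, so its value is the female change alone. Hoxb5, Hoxc10, Hoxc11 and Hoxc12 reached the filter through female KO alone, so a difference there was built into their testing. Their p-values are not evidence of it, and without those 4 members 17 passed. The Hoxd cluster was split, with Hoxd8 0.655 (0.019) and Hoxd9 0.946 (0.011) on one side and Hoxd11 -0.739 (0.0043) and Hoxd13 -0.942 (1.1e-06) on the other.

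Some of these calls rested on single libraries or settings. That of Hoxc5 was lost without any one of 10 libraries, all but male KO replicate 1 and female WT replicate 2 (adjusted p from 0.0503 to 0.07903), with a pseudocount of 0.1 (0.0586) and without a filter (0.0581). That of Hoxa9 was lost without any one of 7, namely each male WT library, male KO replicates 1 and 3, female WT replicate 1 and female KO replicate 3 (0.0527 to 0.0733), and without a filter (0.0633). That of Hoxb5 was lost with a pseudocount of 0.1 (0.132). Whether a difference between sexes or between single lines lies behind the 21 values cannot be told apart.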

How the results depend on the processing

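No difference that passed changed direction under the alternatives tried. Direction turned for 18 alternative values, of 9 differences that passed neither as reported nor under that alternative. Leaving out single libraries gave log2 fold changes from -0.082 to 0.099 for Hoxa2, -0.078 to 0.20 for Hoxb3 and -0.055 to 0.16 for Hoxc9 in male KO against WT, from -0.13 to 0.062 for Hoxa4 and -0.0042 to 0.056 for Hoxd13 in female KO against WT, from -0.13 to 0.52 for Hoxa13 and -0.027 to 0.27 for Hoxb2 in the interaction, and from -0.24 to 0.011 for Hoxa4 and -0.33 to 0.33 for Hoxa13 between the KO groups. Quantile normalization gave 0.066 for Hoxa2 in male KO against WT and 0.0089 for Hoxa4 in female KO against WT, median-of-ratios scaling gave 0.013 for the latter, and a pseudocount of 0.1 gave -0.0088 for Hoxa13 between the KO groups. The numbers of Hox genes that passed stayed within 1.5 times of those reported. Leaving out single libraries gave 9 to 13 in male KO against WT, 15 to 20 in female KO against WT, 19 to 21 for the interaction, 20 to 23 between the WT groups and 21 to 23 between the KO groups. The stricter mean of 5 TPM, which tests fewer genes, gave 13, 15, 14, 18 and 16 in that order. One fit of all libraries gave 18, 22, 29 and 26 for the 4 pairwise comparisons. Same-numbered libraries of different groups did not deviate together (r from -0.057 to 0.078, and a library's own number was the best match in 13 of 36 cases), so the numbers do not pair them. With the replicate number as a block (replicate block), the Hox counts were 11, 15, 20, 21 and 22, and the count over all genes in female KO against WT went from 1434 to 670. With that block 17 calls on single Hox genes did not pass (limma adjusted p from 0.0559 to 0.103). They were those of Hoxa7, Hoxa11 and Hoxb8 in male KO against WT, of Hoxa13, Hoxb7, Hoxc4, Hoxc5, Hoxd8 and Hoxd11 in female KO against WT, of Hoxc5 in the interaction, of Hoxb3, Hoxb5, Hoxc10, Hoxc11 and Hoxd9 between the WT groups, and of Hoxa2 and Hoxa5 between the KO groups. Calls lost under other settings are given where the gene or its difference between the sexes is described. TPM without read numbers set no limit for levels near 0, so a gene listed at 0 may still be transcribed.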

Other observations

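Head and neural crest genes also differed between the cultures. Of the 8 such genes listed, 4 were tested. Barx1, a gene of the jaw and stomach mesenchyme, was higher in female KO than in female WT (log2 fold change 2.28), and so was Alx4, a gene of the skull and the anterior limb bud (0.92). Both passed at a limma adjusted p under 0.05, with 3 libraries a group.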
